A study of Homo sapiens with 12 samples.

Results

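The replication-dependent histone genes encode the H1, H2A, H2B, H3 and H4 proteins that package newly copied DNA. They were taken as all genes with a HIST1H, HIST2H, HIST3H or HIST4H name (now H1-1 to H1-6, H3-4 and the H2AC, H2BC, H3C and H4C series) that had a probe set annotated to them alone. This gave 46 genes on 52 probe sets, of 19775 genes on 41097 such probe sets, and no filter on level was used to choose them. Of the 46, 42 lie on chromosome 6, 3 on chromosome 1 and 1, H2BC12L, on chromosome 21. H2BC12L entered by its current name only, and 2 of the 46 are pseudogenes. RefSeq lists 71 protein-coding genes with a HIST name, of which 43 had a probe set of their own, 19 were covered only by probe sets annotated to several genes and 9 by none.

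The measurements came from HCT116, a human colorectal carcinoma cell line. Before release, all cells had been synchronized by blocking DNA synthesis in 2 rounds with thymidine, so that they entered S phase together. Nocodazole, which depolymerizes microtubules and arrests cells in mitosis, was present after release on 4 arrays, at 7, 8, 9 and 10 h. DMSO, the vehicle, was present on 8 arrays, every 2 h up to 6 h, the array at 0 h included, and then every hour up to 10 h. A single array (Affymetrix U133 Plus 2.0) was run for each of these 12 conditions, so the condition and its array cannot be told apart, and each error below is the spread of neighbouring times or hours around a fit.

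Histone genes of this class are transcribed mainly in S phase, so that histone protein is supplied while DNA is copied. Their mRNAs are unusual in that most end in a conserved stem-loop, bound by the protein SLBP, in place of a poly(A) tail, and they are degraded quickly when DNA synthesis stops. Some members also give polyadenylated transcripts. The standard labelling of this array type starts from an oligo-dT primer, and the part that this has in the low levels described here was not tested.

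The promoters of the members that the results turn on are shown first, because the members can be grouped by the short motifs known from histone promoters. RefSeq (GRCh38.p14) gave a window of 250 bases before to 50 bases after the annotated start for 41 of the 46 genes, with 1 window used per gene. The 4 motifs searched, on both strands, were the H2B octamer ATTTGCAT, the H1 box AAACACA, the CCAAT box CCAAT and the TATA box TATAAA. Below are the 250 bases before the start of 4 genes, read 5′ to 3′ on the strand of the gene, with matches in capitals. H2BC6 (chr6:26183511-26183760, plus strand) and H2BC5 (chr6:26157871-26158120, plus strand) were both high at 2, 4 and 10 h with DMSO, H2BC12 (chr6:27146859-27147108, minus strand) had a log2 level of 10.36 or more on all arrays, and H1-2 (chr6:26056471-26056720, minus strand) was the only H1 gene above the level filter.
H2BC6: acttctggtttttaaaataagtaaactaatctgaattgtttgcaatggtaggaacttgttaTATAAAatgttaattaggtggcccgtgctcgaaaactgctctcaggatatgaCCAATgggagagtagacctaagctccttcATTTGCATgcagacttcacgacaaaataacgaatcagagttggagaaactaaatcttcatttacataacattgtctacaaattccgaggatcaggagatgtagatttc
H2BC5: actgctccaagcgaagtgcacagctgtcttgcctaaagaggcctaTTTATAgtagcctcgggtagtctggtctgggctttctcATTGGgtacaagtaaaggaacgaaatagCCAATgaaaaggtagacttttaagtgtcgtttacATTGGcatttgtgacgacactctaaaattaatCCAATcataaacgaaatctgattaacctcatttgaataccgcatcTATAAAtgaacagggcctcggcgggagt
H2BC12: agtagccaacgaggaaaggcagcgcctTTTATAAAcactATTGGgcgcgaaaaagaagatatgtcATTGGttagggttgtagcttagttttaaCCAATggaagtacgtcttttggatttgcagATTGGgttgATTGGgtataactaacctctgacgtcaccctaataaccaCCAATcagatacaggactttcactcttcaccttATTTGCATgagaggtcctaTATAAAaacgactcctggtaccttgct
H1-2: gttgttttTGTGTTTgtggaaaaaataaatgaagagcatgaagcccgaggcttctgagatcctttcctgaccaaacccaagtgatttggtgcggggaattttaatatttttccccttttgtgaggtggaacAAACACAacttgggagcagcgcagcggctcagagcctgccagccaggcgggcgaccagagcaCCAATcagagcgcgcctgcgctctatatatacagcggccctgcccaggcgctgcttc

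The octamer was found in 10 of 13 H2B and 6 of 8 H2A windows and in 0 of 6 H1, 0 of 7 H3 and 0 of 7 H4 windows, against 1.77% of all 35116 promoter windows of RefSeq. In H2BC6 its first base lay 108 bases and in H2BC12 46 bases before the start, while the letters were not in the windows of H2BC5 and H2AC25. The H1 box was in all 6 H1 windows and in 0 of the other 35 windows, against 5.64% of all windows. CCAAT was in 36 of 41 windows (34.61% of all) and was missing only from H4 genes, of which 2 of 7 held it. TATAAA was in 28 of 41 windows (11.53% of all). The windows of neighbouring H2A and H2B genes can overlap, so the same octamer can be counted for both. This was so for H2AC17 and H2BC17, for H2AC6 and H2BC4, and for H2AC14 and H2BC14. The windows are therefore not independent of each other. These matches are a description of the letters and not of binding.

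**Figure D1:**
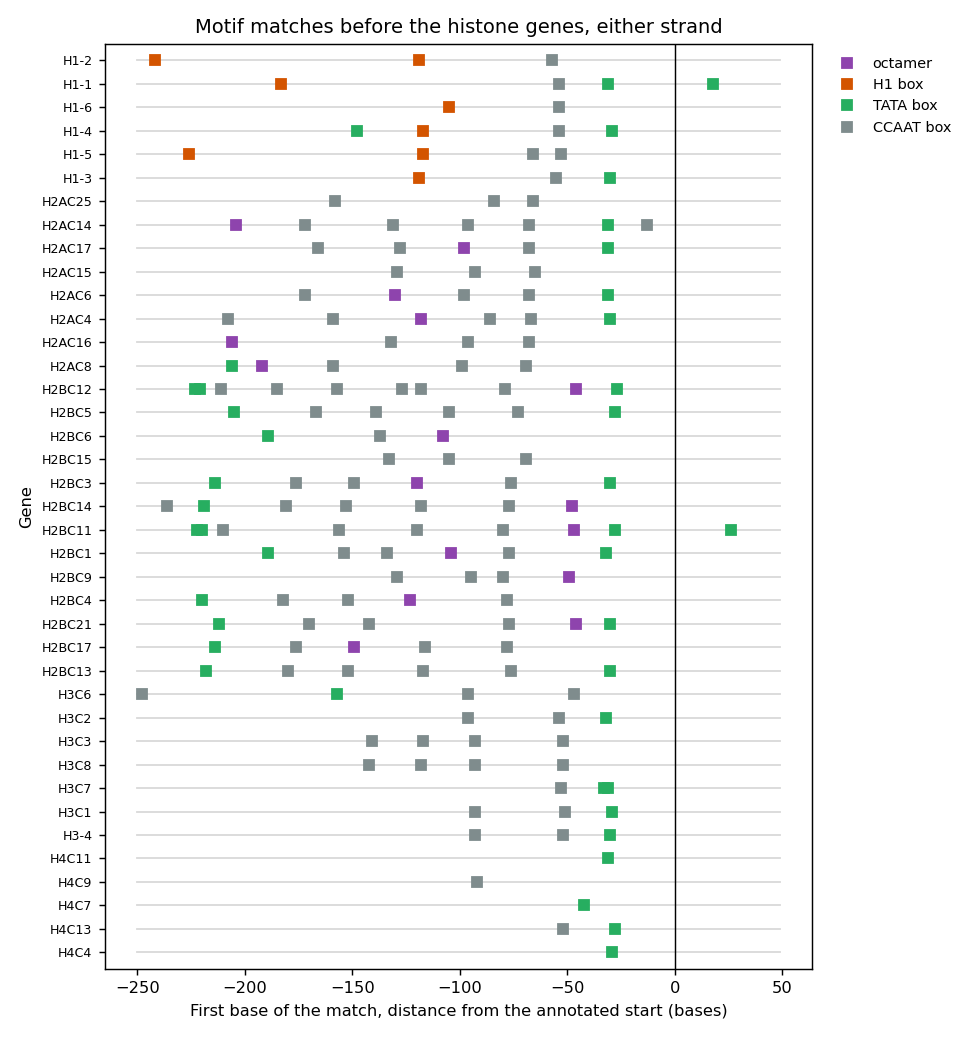
Distance of the first base of each motif match from the annotated start (bases, 0 is the start) for the 39 histone genes with a match, grouped by histone type. Octamers sit only before H2A and H2B genes and H1 boxes only before H1 genes, while CCAAT boxes are spread over all 5 types.

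Most of the class had low signals on these arrays. Of the 46 genes, 6 reached a log2 level of 5 on at least 2 arrays: H2BC12, H2AC25, H2BC12L, H1-2, H2BC5 and H2BC6. They made up 1 of 6 H1, 1 of 9 H2A, 4 of 14 H2B, 0 of 8 H3 and 0 of 9 H4 genes. These counts cover only probe sets annotated to 1 gene. A set annotated to 14 H4 genes, with H4C1 and H4C11 among them, was at 8.49 to 12.25 and is described below. H2BC6 passed only through the DMSO arrays at 2, 4 and 10 h, and its 9 other values were 2.20 to 3.95, in the range of the low members. It had to differ between arrays to be kept, so its values are described without p-values and counts of calls cover the other 5 members. The 40 other genes, on 44 probe sets, had log2 levels of 1.55 to 4.16 on all 12 arrays, and 35 of them varied by less than 0.5 over the DMSO course. The members nearest below the filter were H1-1 (highest level 4.16), H3C6 (4.06) and H2AC14 (4.05).

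Of 8 members listed as giving polyadenylated transcripts, 4 were above the filter (H1-2, H2BC5, H2BC12 and H2AC25), against 2 of the other 38 (H2BC6 and H2BC12L). The list was written from general knowledge, with earlier results of these data known, and is not a measurement on these arrays. These counts are therefore no test of the part that polyadenylation has in the levels. The other 4 listed genes were low. H2AC6 had log2 levels of 2.94, 3.01, 2.40 and 1.55 with nocodazole at 7, 8, 9 and 10 h, against 3.59, 3.05, 3.19 and 3.27 with DMSO, and 2.78, 3.20, 3.07 and 2.87 with DMSO at 0, 2, 4 and 6 h. Both late nocodazole values lay below all its other values.

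H2BC4 had 2.50, 2.46, 2.70 and 2.92 with nocodazole, against 2.41, 2.57, 2.53 and 2.51 with DMSO at the same hours, and 2.57, 2.73, 2.58 and 2.52 with DMSO up to 6 h. H2BC11 had 2.80, 2.83, 3.21 and 3.18 with nocodazole, against 2.75, 2.91, 2.85 and 2.83 with DMSO, and 2.92, 2.99, 2.88 and 2.85 before. H2BC21 had 2.00, 2.01, 2.14 and 2.13 with nocodazole, against 2.00, 2.04, 2.02 and 2.01 with DMSO, and 2.04, 2.07, 2.03 and 1.99 before. In H2BC11 and H2BC21 the late nocodazole values were the highest of the 12.

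**Figure D2:**
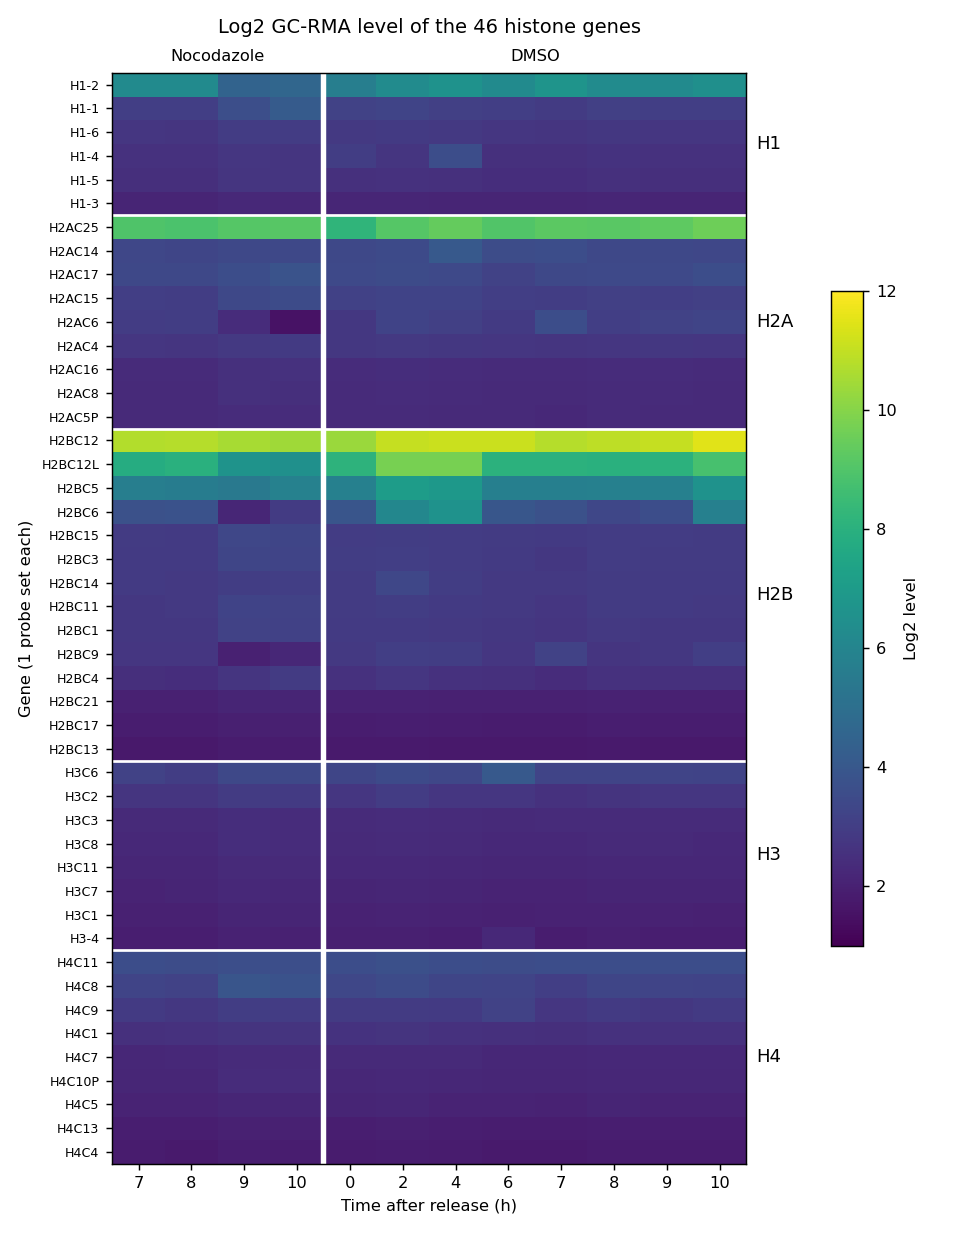
Log2 level (colour) of the 46 histone genes, 1 row each, on the 4 nocodazole and 8 DMSO arrays in order of time after release. The 6 genes above the filter stand out against 40 rows that stay at or below 4.16.

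The arrays themselves differed in ways that touch these results. Over the 9130 genes above the filter, the median log2 level was 8.88 and 8.76 with nocodazole at 9 and 10 h, and 9.12 to 9.56 on the 10 other arrays. The 18S rRNA probe sets averaged 8.32 at 4 h with DMSO and 3.55 to 4.05 on the 11 other arrays. The labelled cell type was checked with markers: EPCAM, CDH1, KRT8, KRT18, KRT19 and KRT20 were above the filter, while CDX1, CDX2, VIL1 and LGALS4, intestinal genes, were not. Of 11 markers of mesenchyme, blood and endothelium, COL1A1 alone was above it, and the mean level of these markers was 3.29 to 3.81 on the 12 arrays.

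Over the DMSO course, 3 H2B probe sets shared a pattern: high at 2 and 4 h, low at 6 to 9 h and higher again at 10 h. The mean level at 2 and 4 h was 2.31-fold that at 6 to 9 h for H2BC5 and 3.24-fold for H2BC12L, hours that were chosen after the values were seen and are not tested. The other 3 members, H2BC12, H2AC25 and H1-2, were lowest at 0 h, and their levels at 2 and 4 h were 1.05-fold to 1.09-fold those at 6 to 9 h. After quantile normalization the log2 difference between these hours was 0.22 to 0.34 for the 3. It was 1.44 for H2BC5 and 1.92 for H2BC12L.

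H2BC6 encodes an H2B core histone, which pairs with H2A in the nucleosome. Its log2 level was 3.88, 6.10, 6.59, 3.95, 3.72, 3.34, 3.60 and 5.80 with DMSO, the first 4 values being those at 0, 2, 4 and 6 h and the last 4 those at 7 to 10 h. H2BC6 passed the filter only through the values at 2, 4 and 10 h. That these lay above the other 5 was set by the filter and is no separate result. The mean at 2 and 4 h was 6.35, that at 6 to 9 h was 3.65, and no fold is given because the lower values lie in the range of the low members.

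H2BC12L is an H2B gene on chromosome 21. Its log2 level was 8.10, 9.73, 9.76, 8.08, 8.08, 7.97, 8.08 and 8.79 at the same 8 times. The arrays at 2 and 4 h were highest, the array at 10 h came next, and the other 5 lay within 7.97 to 8.10.

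H2BC5, also an H2B gene, was read by a pair of probe sets above the filter. The one that represented it had log2 levels of 5.77, 7.09, 6.85, 5.75, 5.74, 5.78, 5.78 and 6.60. The other had 5.84, 7.06, 6.91, 6.59, 5.85, 5.85, 5.89 and 7.06. Both were high at 2, 4 and 10 h. They differed at 6 h, where the second was still at 6.59.

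Across the 8 DMSO arrays, Pearson's r was 0.972 between H2BC12L and H2BC5, 0.963 between H2BC5 and H2BC6 and 0.957 between H2BC12L and H2BC6. These points share their arrays and are no test of a relation. All these probe sets carry the manufacturer's mark for probes that can also match other sequences, and H2B genes are near-identical, so how their signal divides among H2B genes is uncertain.

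H2BC12, a further H2B gene, had log2 levels of 10.36, 11.05, 11.11, 11.12, 10.79, 10.89, 11.01 and 11.49 over the 8 times. H2AC25, an H2A gene on chromosome 1, had 8.18, 9.11, 9.42, 9.03, 9.22, 9.17, 9.29 and 9.55. Another probe set of H2AC25 was low, at 1.98 to 2.19 on all 12 arrays. H1-2, a linker histone gene, had 5.72, 6.31, 6.60, 6.26, 6.67, 6.30, 6.28 and 6.46. For each of the 3 genes the array at 0 h was the lowest, and from 2 h on the levels of H2BC12 and H2AC25 peaked at 10 h and that of H1-2 at 7 h. The step from 0 to 2 h was 0.69 for H2BC12, 0.93 for H2AC25 and 0.58 for H1-2 on the log2 scale, while for H2BC6, H2BC12L and H2BC5 it was 2.22, 1.63 and 1.32. Over all 9130 genes the step from 0 to 2 h had a median of 0.01. For 95% of genes it lay at or below 0.61, as it did for H1-2. Each of these hours is a single array.

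The step from 9 to 10 h was 2.20 for H2BC6, 0.82 for H2BC5, 0.71 for H2BC12L, 0.47 for H2BC12, 0.27 for H2AC25 and 0.18 for H1-2. Over all 9130 genes this step had a median of 0.25, and 95% of genes lay at or below 0.67. After quantile normalization, which gives every array 1 distribution, it was 1.88 for H2BC6, 0.60 for H2BC5, 0.44 for H2BC12L, 0.19 for H2BC12, -0.01 for H2AC25 and -0.03 for H1-2, so that the last 2 turned their sign. It rests on a single array at 10 h. In bulk samples such as these, a different share of cells making histone mRNA and a different amount of it per cell cannot be told apart.

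**Figure D3:**
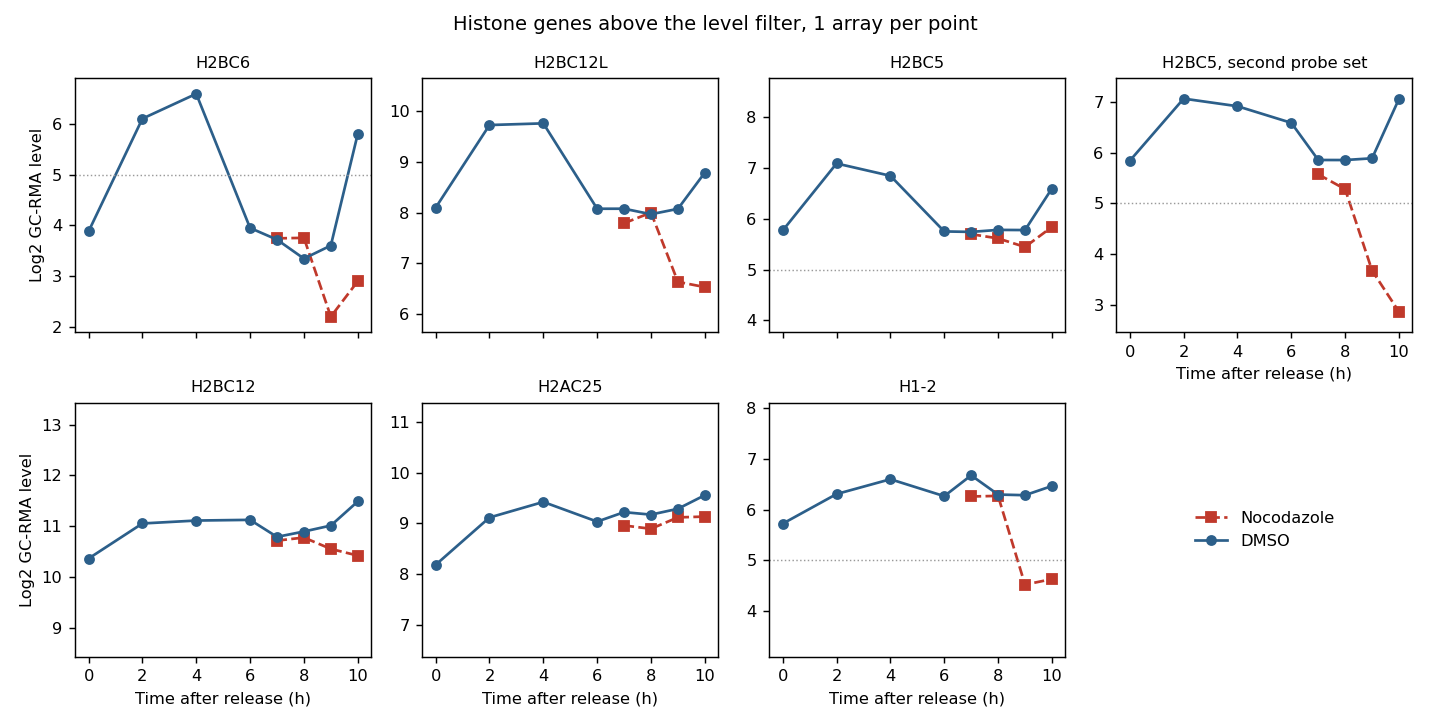
Log2 level against time after release (h) for the 6 histone genes above the filter, with both probe sets of H2BC5, for nocodazole (red squares) and DMSO (blue circles). Each point is 1 array, every panel spans 5 log2 units and the dotted line is the filter at 5. H2BC6, H2BC12L and H2BC5 are high at 2, 4 and 10 h with DMSO.

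A smooth curve over the 8 DMSO arrays (natural cubic spline with 3 degrees of freedom, F test in limma, Benjamini-Hochberg adjusted over 9130 genes) was passed by 4 of the 5 members counted, against 21.8% of all genes tested. The adjusted p was 0.0108 for H2BC12L, 0.017 for H2AC25, 0.0183 for H2BC12 and 0.0309 for H2BC5, and it was 0.191 for H1-2. Without the array at 2 h or that at 4 h, which stood apart in 18S signal, H2BC12 alone passed, and without the array at 0 h H2BC12L and H2BC5 did. H2BC12 did not pass without the array at 8 h or that at 10 h. With 2 degrees of freedom 0 members passed.

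Comparing windows of the DMSO course asked whether members differed between early, middle and late hours. At 6 to 8 h over 0 to 4 h the log2 difference was -1.15 ± 0.42 for H2BC12L (SE, adjusted p in limma 0.133) and -0.81 ± 0.35 for H2BC5 (0.189), and it was -1.86 for H2BC6. The early window holds the low array at 0 h together with the high ones at 2 and 4 h. No member passed, against 6.05% of all genes called, and 2 of 5 had an unadjusted p under 0.05, against 24.9% of all genes. Without the array at 0 h, H2BC12L passed at -1.70 (adjusted p 0.0406). At 9 to 10 h over 6 to 8 h, 0 members passed and 0 had an unadjusted p under 0.05 in limma. Of all genes, 0% were called and 5.15% had an unadjusted p under 0.05. The differences were 0.43 ± 0.39 for H2BC5 and -0.04 ± 0.27 for H1-2 at the extremes of the 5 (SE). At 9 to 10 h over 0 to 4 h, 0 members passed and 0 had an unadjusted p under 0.05. Of all genes, 14.3% were called and 32.6% had an unadjusted p under 0.05. H2BC12L passed only without the array at 0 h.

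With nocodazole no member passed the test at 7 and 8 h. At 9 and 10 h H1-2, H2BC12L and H2BC12 were lower than with DMSO, by 0.76 to 1.85 on the log2 scale (differences of -0.76 to -1.85). The median difference over all 9130 genes was -0.44 there. Where late nocodazole values of a member lay below all its DMSO values, the share of all genes that did the same was not counted. These comparisons share the DMSO arrays at 7 to 10 h with each other and with the windows above.

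H2BC6 had log2 levels of 3.74, 3.75, 2.20 and 2.90 with nocodazole at 7, 8, 9 and 10 h, against 3.72, 3.34, 3.60 and 5.80 with DMSO. Both late nocodazole values lay below all 8 DMSO values, and the difference was -1.40 at 9 h and -2.90 at 10 h. All 4 nocodazole values were under the filter.

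H1-2 had log2 levels of 6.26, 6.27, 4.52 and 4.63 with nocodazole, against 6.67, 6.30, 6.28 and 6.46 with DMSO. Both late values were below the lowest DMSO level of the whole course, 5.72 at 0 h. The difference at 9 and 10 h was -1.80 ± 0.25 (SE, limma adjusted p 0.000342), nearly equal at 9 h (-1.76) and 10 h (-1.84).

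H2BC12L had log2 levels of 7.79, 8.00, 6.64 and 6.53 with nocodazole, against 8.08, 7.97, 8.08 and 8.79 with DMSO. The difference at 9 and 10 h was -1.85 ± 0.27 (SE, limma adjusted p 0.00045). H2BC12 had 10.71, 10.78, 10.55 and 10.42 with nocodazole, against 10.79, 10.89, 11.01 and 11.49 with DMSO. It differed less, by -0.76 ± 0.19 (SE, limma adjusted p 0.00784), and no longer passed without the pair at 10 h (-0.46, adjusted p 0.0619).

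H2AC25 had log2 levels of 8.96, 8.89, 9.12 and 9.13 with nocodazole, against 9.22, 9.17, 9.29 and 9.55 with DMSO. It was lower by 0.17 to 0.42 at each hour and did not pass at 9 and 10 h (-0.30 ± 0.22, SE, limma adjusted p 0.279). After quantile normalization its sign turned, to 0.30.

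The pair of probe sets of H2BC5 disagreed under nocodazole. The representative set had 5.70, 5.61, 5.44 and 5.84 with nocodazole, against 5.74, 5.78, 5.78 and 6.60 with DMSO, and did not pass at 9 and 10 h (-0.55 ± 0.25, SE, limma adjusted p 0.09), though it did without the pair at 7 h (adjusted p 0.0497) or at 8 h (0.0478). The other set had 5.57, 5.28, 3.67 and 2.86 with nocodazole, against 5.85, 5.85, 5.89 and 7.06 with DMSO. Where that set stood for the gene, under a filter at 7, the difference was -3.21. The set passed that filter only through DMSO at 2 and 10 h (7.06 on both arrays), so no p-value is given. With the mean of both sets the difference was -1.88 (limma adjusted p 0.00014).

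**Figure D4:**
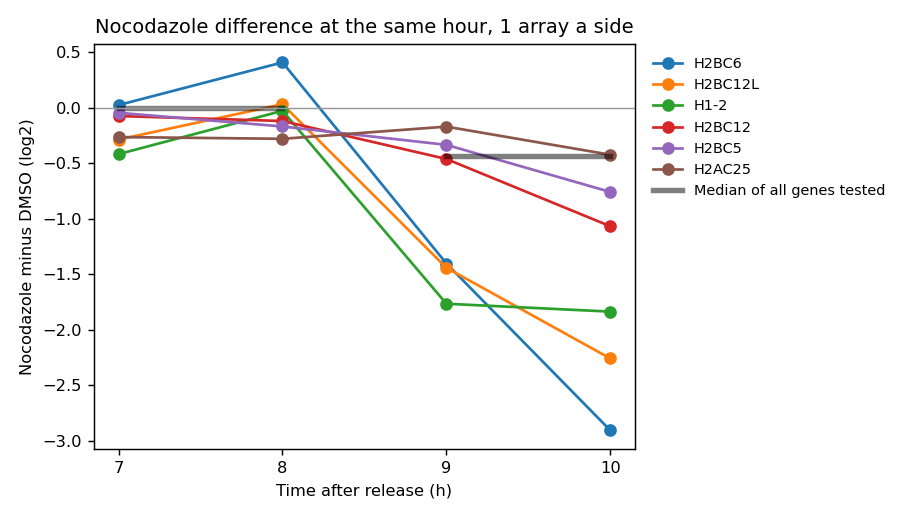
Nocodazole minus DMSO on the log2 scale at 7, 8, 9 and 10 h for the 6 histone genes, with the median over 9130 genes for each pair of hours (grey bars). In the values as deposited all 6 genes are below 0 at 9 and 10 h, with H2BC6 at -2.90 and H2AC25 at -0.42 at 10 h, while after quantile normalization H2AC25 lies above 0.

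At 9 and 10 h, 3 of 5 members were called lower, against 40.8% of all genes tested, and 0 were called higher. The median difference of the 5 was -0.76, beside -0.44 over all genes. After quantile normalization, where the median of all genes was -0.0004, the differences were -2.20 for H2BC6, -1.74 for H1-2, -1.26 for H2BC12L, -0.31 for H2BC12 and -0.14 for H2BC5, and the same 3 members were called. At 7 and 8 h, 0 members passed in limma and 0 had an unadjusted p under 0.05. Of all genes, 0.0219% were called and 1.96% had an unadjusted p under 0.05. The differences were -0.27 to -0.10 for these 5 and 0.22 for H2BC6. Over all 4 hours together, 0 members passed and 2 had an unadjusted p under 0.05 in limma (H1-2 and H2BC12L, -1.01 ± 0.35 and -0.99 ± 0.39, SE), against 0% of all genes called and 10.4% at an unadjusted p under 0.05. Without the pair at 8 h, H1-2 passed.

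Whether the nocodazole difference itself changed from 7 and 8 h to 9 and 10 h was tested as an interaction. It became lower in H2BC12L (-1.72 ± 0.39, SE, limma adjusted p 0.0183) and H1-2 (-1.58 ± 0.35, adjusted p 0.0185), so in 2 of 5 members, against 10.3% of all genes. Without the pair at 10 h neither passed, and H2BC12L did not pass after quantile normalization (-1.11, adjusted p 0.0505). H2BC12, H2BC5 and H2AC25 had changes of -0.67, -0.44 and -0.02 and did not pass. H2BC5 did pass with the mean of its probe sets, and H2BC12 passed without the pair at 9 h. H2BC5 also passed under the filter at 7. Its other set was kept there only through the DMSO arrays at 2 and 10 h, so that call carries no weight.

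The 40 low members also shifted on the late nocodazole arrays. In 27 of them both late nocodazole values were above the values of all 10 other arrays, as they were in 82.0% of the 18168 probe sets of all genes under the filter. With no filter, 38 of 46 members were called at 9 and 10 h, against 67.5% of all 19775 genes, and among the 40 low members 32 were called higher and 2 lower, with log2 differences of -1.26 to 0.86. H2BC9 went against this shift, with 2.01 and 2.24 with nocodazole at 9 and 10 h, against 2.78 and 3.05 with DMSO. So did H2AC6, given above.

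Histone signal was also read by 20 probe sets annotated to several genes, which cannot be assigned to 1 member. Of these, 16 stayed between 1.75 and 4.12, and 4 passed the filter. The H4 class had no member above the filter. However, a set annotated to 14 H4 genes, low members such as H4C1 and H4C11 among them, passed it. This set had log2 levels of 10.65, 9.45, 9.53 and 8.49 with nocodazole at 7, 8, 9 and 10 h, against 10.76, 10.49, 11.09 and 12.25 with DMSO. Its DMSO levels before that were 10.64, 11.54, 11.63 and 10.36 at 0, 2, 4 and 6 h, so it was again highest at 2, 4 and 10 h.

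Of the pair of sets annotated to the H2A genes H2AC18 and H2AC19, the first had 7.51, 7.72, 6.34 and 6.87 with nocodazole, against 7.88, 7.80, 8.13 and 8.99 with DMSO, and reached 9.48 and 9.79 at 2 and 4 h. The second had 6.78, 6.92, 7.46 and 7.41 with nocodazole, against 7.40, 7.20, 7.40 and 7.97 with DMSO, so at 9 h the nocodazole value was not lower. A set annotated to 5 H2B genes, H2BC6 among them, was at 6.40 and 6.14 at 2 and 4 h with DMSO and at 5.10 to 5.23 on the 10 other arrays, with no rise at 10 h. These sets were not tested.

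**Figure D5:**
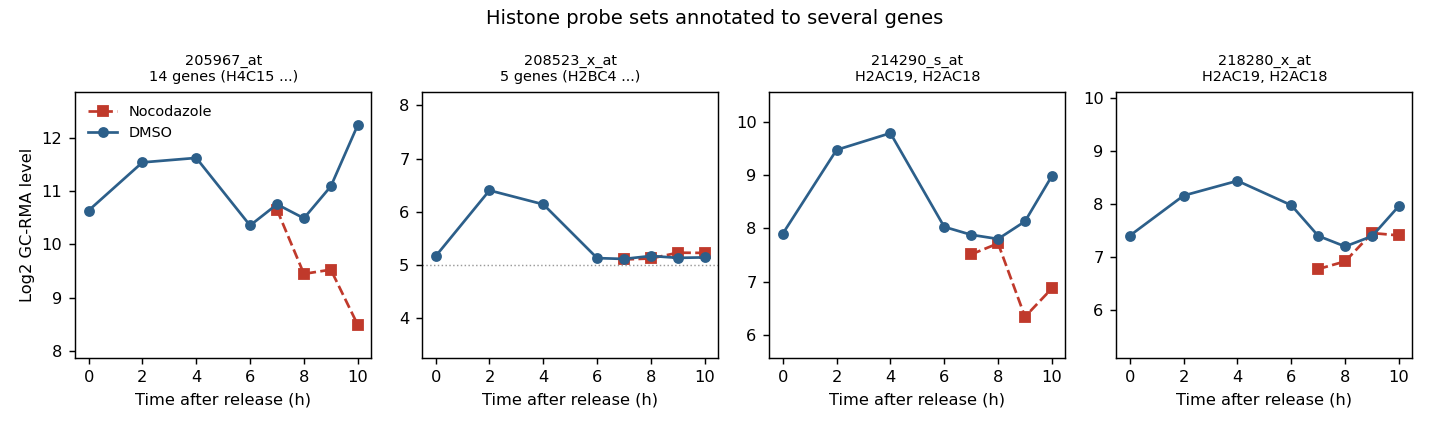
Log2 level against time after release (h) of the 4 histone probe sets above the filter that are annotated to several genes, for nocodazole (red squares) and DMSO (blue circles), 1 array per point and 5 log2 units per panel. At 10 h the H4 set is at 8.49 with nocodazole and at 12.25 with DMSO.

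The genes that make and process histone mRNA were given beside the members, from a list of 14 of which 13 were above the filter. Of these, 12 were called lower with nocodazole at 9 and 10 h, against the 40.8% of all genes given above. The median difference of the 13 was -0.94, beside -0.44 over all genes. This list was described on the values as deposited only, and not after quantile normalization. SLBP, which binds the stem-loop, had 12.80 and 12.68 with nocodazole at 9 and 10 h, against 13.14 and 13.46 with DMSO (-0.56 ± 0.15, SE, limma adjusted p 0.00997). NPAT, the coactivator of histone transcription, had 6.84 and 6.45, against 7.54 and 8.78 with DMSO (-1.52 ± 0.33, adjusted p 0.00394). LSM11, a subunit of the U7 particle that cleaves histone mRNA ends, had 6.17 and 5.27, against 7.59 and 7.85 with DMSO (-2.01 ± 0.30, adjusted p 0.00045).

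Over the DMSO course 5 of the 13 passed, SLBP, NPAT, CASP8AP2, CPSF2 and UPF1, against the 21.8% of all genes. SLBP was 12.84, 12.74, 12.48, 12.28, 12.76, 13.01, 13.14 and 13.46 over the 8 times, lowest at 6 h and highest at 10 h. At 9 to 10 h over 0 to 4 h, 4 were called higher and 0 lower, against 11.9% of all genes called higher: UPF1, a helicase needed for histone mRNA decay (1.44 ± 0.24, SE, limma adjusted p 0.0157), the cleavage factor CPSF2 (1.16 ± 0.20, adjusted p 0.0157), CSTF2 (0.86 ± 0.22, adjusted p 0.0334) and the exonuclease ERI1 (0.68 ± 0.17, adjusted p 0.0318).

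Histones outside the class, most of which are made from polyadenylated mRNA, are given as a comparison. Of 12 listed, 9 were on the arrays and 8 above the filter. H2AZ1, which encodes the variant H2A.Z, had log2 levels of 15.26 and 15.27 with nocodazole at 9 and 10 h, against 14.97 and 15.15 with DMSO (0.20 ± 0.11, SE, limma adjusted p 0.145). CENPA, the centromeric H3 variant, differed by 0.08 ± 0.23 (SE, adjusted p 0.803). H1-10, H2AJ, H2AX and MACROH2A2 were called lower, 4 of 8, beside 40.8% of all genes, and the median difference of the 8 was -0.35, beside -0.44 over all genes. H3-3A was listed at 10.24 at 4 h with DMSO and at 1.84 to 2.40 on the 11 other arrays. That single array also stood apart in 18S signal (8.32, against 3.55 to 4.05 on the 11 others). The cause of the H3-3A value was not tested.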

How the data were processed

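RNA of 12 samples of synchronized HCT116 cells was read on 1 array each. The authors deposited log2 signals of probe sets. They were computed with GC-RMA according to the submitters' processing notes, and its version is not given in the sources used here. All 12 columns were used and 0 belonged to no sample. Probe sets were named through the array's annotation, with 41097 of 54675 annotated to 1 symbol, 1801 to several and 11777 to none, and all 46 member genes were matched to RefSeq by gene ID. Tests were run on the 9130 genes with a probe set at log2 5 or more on 2 or more arrays, using for each gene its probe set of highest mean. The fits used limma 3.58.1 (R 4.3.3), an intensity trend in eBayes and Benjamini-Hochberg adjustment over all genes, called at an adjusted p under 0.05. The fits were a spline over the DMSO course, a fit of 3 windows (0 to 4, 6 to 8 and 9 to 10 h), and nocodazole over DMSO at 7 to 10 h with the hour as a block, once as 1 difference and once with 7 and 8 h apart from 9 and 10 h. The labels name no separate cultures behind the hours, and the p-values measure only scatter between these arrays, whose number limits the precision.

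The members named with values on every array were those called in any comparison or above the filter with the largest DMSO range, and those listed as polyadenylated. The probe sets of several genes, the H2BC9 values and the hours set against each other within the DMSO course were chosen after their values were seen. The members and lists were chosen with earlier results of these data known. Alternatives concerned the filter (none, or 7), normalization (quantile), probe sets (their mean per gene), the variance prior (without a trend), the spline (2 degrees of freedom), the spread (from all arrays), the block (none) and the arrays (each time or hour left out). The fits were tested on simulated data. Descriptions and plots used Python 3.11.15, numpy 2.4.6, pandas 2.3.3 and matplotlib 3.10.9.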

Additional observations from a re-analysis of the deposited data

Results flagged for a closer look

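For 2 of the 5 histone genes counted, the nocodazole difference at 9 and 10 h was lower than that at 7 and 8 h, against 10.3% of all genes. This was a test of the change itself (limma interaction, adjusted over 9130 genes). The change was -1.72 on the log2 scale for H2BC12L (adjusted p 0.0183) and -1.58 for H1-2 (adjusted p 0.0185). For H2BC6 it was -2.37, but that gene was kept only through DMSO arrays at which it was high, the one at 10 h among them, so its test carries no weight. The median change over all genes was -0.44. With quantile normalization H2BC12L no longer passed (-1.11, adjusted p 0.0505). Without the pair of arrays at 10 h, H2BC12L (-1.31, adjusted p 0.159) and H1-2 (-1.54, adjusted p 0.123) did not pass.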

How the results depend on the processing

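Counts of members called are given with the limma fit changed 1 choice at a time. They cover here all 6 members above the filter, H2BC6 included. Calls of H2BC6 carry no weight, because it was kept only through DMSO arrays at which it was high. Without it, the main fit called 4 of 5 members over the DMSO course, 3 at 9 and 10 h and 2 for the change between the hours. Over the DMSO course, where 5 members passed, 0 did with a spline of 2 degrees of freedom, and 2 to 5 with a time left out. With a time left out, 0 to 1 passed at 6 to 8 h over 0 to 4 h and at 9 to 10 h over 0 to 4 h, H2BC12L without 0 h in both. For nocodazole over DMSO at 7 to 10 h it was 0 to 1 with an hour left out, H1-2 without the pair at 8 h. At 9 and 10 h, where 4 passed, it was 38 with no filter, against 67.5% of all genes, and 3 to 5 with an hour left out. For the change between the hours, where 3 passed, it was 1 to 4 with an hour left out. With no filter it was 35, but the share of all genes called in that fit is not given. That count is therefore no result about the members. The median change with no filter was upward, 0.12 over the 46 members and 0.09 over all genes. In the main fit the 3 called changes were downward. Without the pair at 10 h only H2BC6 was called, and without that at 9 h H2BC12 was added. With no filter, 46 members were tested in place of 6.

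Members that did not pass turned their sign. At 6 to 8 h over 0 to 4 h, H2BC12 had -0.0373, H2AC25 -0.0142 and H1-2 -0.0823 after quantile normalization. With a time left out, H2BC12 had -0.15 (without 0 h) to 0.23 (without 4 h), H2AC25 -0.13 to 0.49 and H1-2 -0.0404 to 0.40 at the same times, and H2BC12 was at -0.0005 without 6 h. At 9 and 10 h, H2AC25 had 0.30 with nocodazole over DMSO after quantile normalization. The cause was not tested. Nocodazole and DMSO arrays were paired by hour through the block. Under quantile normalization, no intensity trend or no time block, H2BC12, H2BC12L and H1-2 were called at 9 and 10 h. With no time block H2BC12L and H1-2 were called for the change. The number of arrays and the closeness of 40 members to the lowest signals limit what could be seen.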
